A study of Mus musculus with 8 samples.

Results

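The genes described here are the 38 that carry out the unfolded protein response and protein folding in the endoplasmic reticulum (ER): Xbp1 and the stress sensors, the chaperones, the disulfide enzymes, the channel through which new proteins enter, the apparatus that removes misfolded proteins, and the outputs of the PERK branch. They were taken from a list of symbols with no filter on their measured values, but the list was chosen with earlier results of these data known. All 38 were found among the 49315 gene identifiers of the count tables. All 38 also had enough counts to be tested, among 17179 genes in all. RNA was sequenced from whole esophagus of wild-type mice, 5 libraries from untreated animals (control) and 3 from animals given the anionic detergent sodium dodecyl sulfate (SDS) at 0.5% in their drinking water, all at day 14. The sources used here state no strain, age or sex. They also do not say that each library is a separate animal, so the p-values cover no more than the variation among these 8 libraries, which may be technical. The comparison asks what the detergent does to the esophagus.

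The ER is where secreted and membrane proteins are threaded in, folded and given their disulfide bonds. When unfolded protein builds up there, 3 membrane sensors respond: IRE1 (Ern1) splices the Xbp1 mRNA so that it encodes an active transcription factor, ATF6 (Atf6) is cut to release another, and PERK (Eif2ak3) phosphorylates the initiation factor eIF2alpha, which slows translation and favours ATF4 and its target CHOP (Ddit3). XBP1 and ATF6 induce genes of chaperones, translocation and degradation, and XBP1 is required in professional secretory cells such as plasma cells. The esophagus of the mouse is a stratified squamous epithelium on connective tissue and striated muscle. The gene counts used here do not separate spliced from unspliced Xbp1 mRNA, so they measure the amount of the sensors' and targets' mRNA and not the activity of a branch.

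Libraries held 22033866 to 29802362 counts assigned to genes. Markers of the squamous epithelium (Krt5, Krt14, Krt4, Krt13, Trp63, Dsg3, Cdh1 and Krt15) summed to 40987 to 135485 CPM (counts per 1000000 counts of the library) in controls and 88745 to 150194 CPM in SDS, a sum made up mostly of Krt4 and Krt13. Of these 8 markers 7 had a log2 fold change above 0, and every SDS library lay above every control for Krt14 (5.85-fold, edgeR adjusted p = 0.0493), Dsg3 (2.21-fold, adjusted p = 0.129) and Krt5 (1.48-fold, adjusted p = 0.352). Krt14 and Krt5 mark the basal layer, and the part of these markers in the members' values was examined only through the covariate below. The summed CPM of 9 striated muscle markers (Acta1, Ckm, Myh1, Myh2, Myh4, Tnnt3, Tnni2, Actn3 and Mylpf) was 27140 to 37143 in controls and 23523, 19383 and 13092 in SDS libraries 1, 2 and 3, so that the groups did not overlap. All 9 had a log2 fold change below 0, with 6 at an unadjusted p under 0.05 (8.53% of all genes on the lower side). By edgeR 0 of 9 were called (0.425% of all genes lower). The 4 markers of cycling cells also did not overlap, at 39.7 to 78.6 CPM in controls and 117, 231 and 92.0 CPM in SDS, and the part of cycling cells in the values below was not tested. In bulk tissue, fewer cells of a type and less RNA per cell cannot be told apart. SDS libraries 2 and 3 and control library 4 stand apart within their groups. SDS library 3 had the lowest muscle, fibroblast (999 CPM against 2476 and 6248) and macrophage sums (115 CPM against 263 and 508) of its group. SDS library 2 had the highest fibroblast sum (6248 CPM, controls 2029 to 2657) and macrophage sum (508 CPM, controls 117 to 191) of all. Its cycling cell sum (231 CPM) was also the highest. Control library 4 had the highest adipocyte sum of all (3353 CPM against 32.9 to 894 in the others).

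Of the 38 genes, Xbp1 alone passed the test, and it was higher after SDS. With Benjamini-Hochberg adjustment over all genes, the quasi-likelihood test of edgeR gave the background: 0.623% of the 17179 genes tested were called higher and 0.425% lower. Among the members it called 1 of 38 higher and 0 lower. Most members nevertheless lay on the same side: 35 of 38 had a log2 fold change above 0, against 49.3% of all genes tested, and their median was 0.26, against -0.005 over all genes. For 15 members every SDS library lay above every control, where 6.49% of all genes did so. For 1 member, Chac1, every SDS library lay below every control, where 6.89% of all genes did so. An unadjusted p under 0.05 was reached by 17 members on the higher side (9.98% of all genes) and by 1 on the lower side (8.53% of all genes). These shares describe a list chosen with earlier results of these data known, and genes of a library vary together, so they are given without a test.

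**Figure D1:**
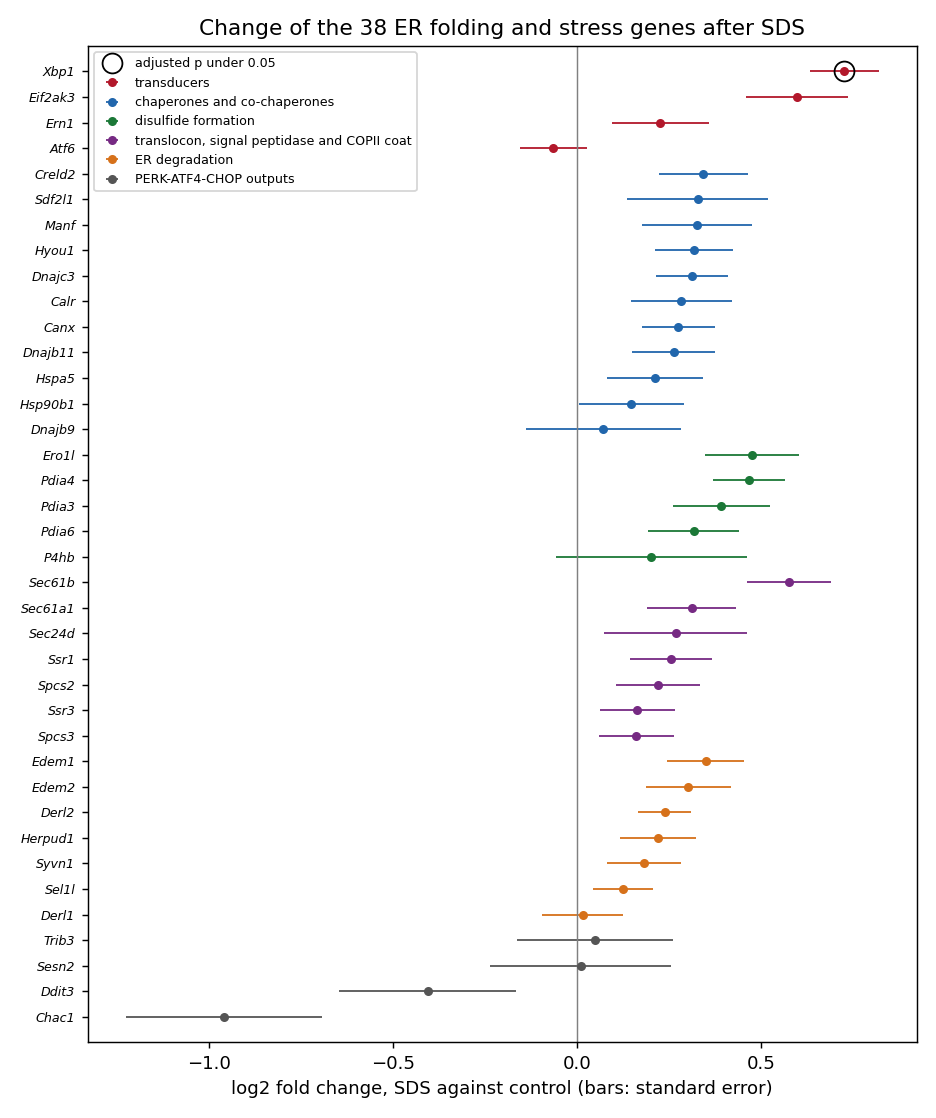
Log2 fold change of each of the 38 genes (SDS against control, horizontal axis) with its standard error, coloured by role; a black ring marks an adjusted p under 0.05. Xbp1 alone carries the ring at 0.73, 35 points lie to the right of 0, and Chac1 at -0.96 and Ddit3 at -0.41 lie farthest to the left.

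The count of calls depended on the libraries and the tool. DESeq2 called 10 members higher (Xbp1, Sec61b, Pdia4, Eif2ak3, Ero1l, Edem1, Derl2, Dnajc3, Pdia3 and Canx) and 1 lower (Chac1), where it called 5.21% of the 16502 genes with an adjusted p higher and 4.55% lower. The 1 of 38 called lower is a smaller share than that over all genes. Limma-voom called 1 member higher and 0 lower, and 0.413% and 0.373% of all genes. Without SDS library 3, edgeR called 4 members higher (Xbp1, Sec61b, Pdia4 and Eif2ak3) and 4.98% of all genes. Without SDS library 3 and control library 4 it called 5, the same 4 and Sec24d, and 7.50% of all genes, so calls over all genes grew along with those of the members. Without control library 1, 2, 3 or 5, or SDS library 1 or 2, it called 0 of 38, and 4 to 19 genes of all higher.

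Xbp1 (ENSMUSG00000020484, plus strand, chr11:5520659-5525893 on mm10) encodes the transcription factor whose mRNA IRE1 splices. It measured 152, 161, 146, 163 and 165 CPM in control libraries 1 to 5 and 261, 264 and 254 CPM in SDS libraries 1 to 3. Both groups were tight and far apart: the lowest SDS library lay well above the highest control, and SDS library 3 was at the level of the other SDS libraries. Xbp1 rose 1.65-fold, with a mean of 157 ± 7.99 CPM in controls (SD, n = 5) and 260 ± 5.25 CPM after SDS (SD, n = 3). On the log2 scale this was 0.73 ± 0.09 (SE; edgeR adjusted p = 0.0240).

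The size of this change hardly moved between settings, while its call did. Leaving out each library in turn gave log2 fold changes of 0.70 to 0.75, and the edgeR adjusted p became 0.0955, 0.0803, 0.0590 and 0.0820 without control library 1, 2, 3 and 5, and 0.0600 and 0.144 without SDS library 1 and 2. It was 0.0322 without control library 4 and 0.00700 without SDS library 3. With the mean of the striated muscle markers as a covariate Xbp1 kept a log2 difference of 0.73 (adjusted p = 0.352), and with the mean of the squamous epithelium markers it had 0.76 (adjusted p = 0.0119). Each covariate was the mean log2 CPM of its markers, in which every marker weighs the same, and not the sum given above. The muscle marker sums do not overlap between the groups, but the covariate gives the same weight to markers that do. Myh2 measured 12.7 to 680 CPM in controls and 12.1 to 171 CPM in SDS. Myh4 measured 42.4 to 3223 CPM in controls and 196 to 231 CPM in SDS. The difference of Xbp1 at an equal muscle marker sum was therefore not tested.

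Of the 3 sensors, the PERK gene stood nearest to the threshold. Eif2ak3 (chr6:70844515-70905245, plus strand) measured 14.2, 14.7, 12.3, 12.1 and 15.2 CPM in controls and 24.6, 19.6 and 18.1 CPM in SDS, so the groups did not overlap and SDS library 1 was highest. The log2 difference was 0.60 ± 0.14 (SE; edgeR adjusted p = 0.0749). Ern1, the IRE1 kinase and endonuclease, measured 39.4, 47.8, 54.2, 38.8 and 50.5 CPM in controls and 49.6, 54.7 and 57.6 CPM in SDS. The groups overlapped, and the log2 fold change was 0.23 ± 0.13 (edgeR adjusted p = 0.412). Atf6 measured 53.9, 61.8, 55.0, 51.9 and 52.3 CPM in controls and 49.2, 54.6 and 54.0 CPM in SDS, with the SDS values inside or just under the control range and a log2 fold change of -0.06 ± 0.09 (edgeR adjusted p = 0.761). A difference of the Xbp1 mRNA from that of its sensors was not tested.

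**Figure D2:**
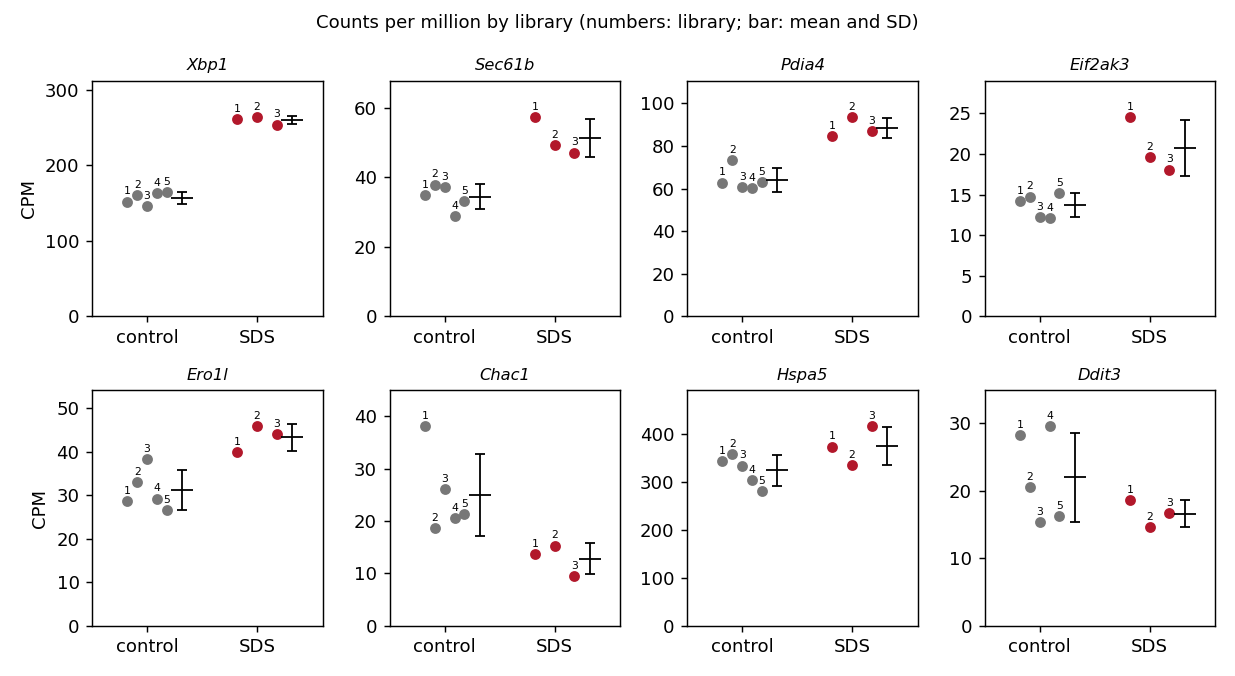
CPM (vertical axes, from 0) of 8 members in each library, with the library number at each point and the group mean and SD as a bar. The 3 SDS libraries lie above all 5 controls for Xbp1, Sec61b, Pdia4, Eif2ak3 and Ero1l, below them for Chac1, and within or across their range for Hspa5 and Ddit3.

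Chaperone genes are the classical targets of ATF6 and XBP1, which act on them through the ER stress element, a CCAAT box and a CCACG box separated by 9 bases. Promoter windows of 300 bases (250 before the RefSeq start and 50 after it, GRCm38.p6) were found for 32 of the 38 members. Those letters, on either strand, occurred in 8 of the 32 members with a window (25%) and in 0.137% of all 27025 genes with one. The 8 stretches are shown because, of the 5 motifs searched, this one differed most in share from all genes. The list was made of known genes of this response, so the share is not independent of how the genes were chosen. Each is written along the gene's own strand from 5′ to 3′, with both boxes of the element in capitals; CGTGG before ATTGG is the same element on the other strand.
Hspa5, chr2:34772015-34772053 (plus): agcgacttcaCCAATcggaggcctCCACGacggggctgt
Dnajc3, chr14:118937817-118937855 (plus): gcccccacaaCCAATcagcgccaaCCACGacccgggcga
Pdia6, chr12:17266481-17266519 (plus): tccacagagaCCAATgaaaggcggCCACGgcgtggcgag
Syvn1, chr19:6046522-6046560 (plus): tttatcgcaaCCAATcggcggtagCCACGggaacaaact
Canx, chr11:50325790-50325828 (minus): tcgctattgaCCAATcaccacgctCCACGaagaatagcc
Calr, chr8:84847065-84847103 (minus): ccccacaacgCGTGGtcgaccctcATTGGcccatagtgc
Creld2, chr15:88819510-88819548 (plus): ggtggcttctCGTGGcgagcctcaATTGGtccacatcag
Hsp90b1, chr10:86705523-86705666 (minus): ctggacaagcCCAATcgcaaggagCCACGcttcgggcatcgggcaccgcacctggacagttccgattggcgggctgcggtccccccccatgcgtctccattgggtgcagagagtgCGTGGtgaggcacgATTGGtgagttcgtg

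Hsp90b1 holds the element 2 times, once on each strand. A match of letters is a description and not a measured binding site. The 8 members with the element had log2 fold changes of 0.15 to 0.34 with a median of 0.28, and the 24 with a window but no such letters had a median of 0.25 and the wider range of -0.96 to 0.73, which includes Xbp1 and Chac1. The other letters searched on both strands were TGACGTGG, the core of the XBP1 element (1 of 32 members, Sec24d, and 0.714% of all genes), TGACGTCA, the cyclic AMP element (0 of 32 and 2.03%), TGATGCAT (0 of 32 and 0.636%) and TGATGCAA (2 of 32, Chac1 and Herpud1, and 1.03%), both forms of the composite element that ATF4 uses. TGACGTGG and TGACGTCA share their first letters, TGACGT.

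All 11 chaperone and co-chaperone genes had a log2 fold change above 0 (49.3% of all genes), from 0.07 to 0.34 with a median of 0.28. By edgeR 0 of 11 were called, where 0.623% of all genes were called higher and 0.425% lower. On the higher side 5 had an unadjusted p under 0.05 (9.98% of all genes), and DESeq2 called 2 (5.21% of all genes). Hspa5, which encodes BiP, the main Hsp70 of the ER and the partner of the sensors, measured 343, 357, 333, 303 and 279 CPM in controls and 373, 334 and 415 CPM in SDS. SDS library 2 lay within the control range, and the log2 fold change was 0.21 ± 0.13 (SE, edgeR adjusted p = 0.438). Hsp90b1 (GRP94) gave 0.15 ± 0.14 and Dnajb9 (ERdj4), a co-chaperone of BiP and a well known XBP1 target, gave 0.07 ± 0.21, from 16.7 to 31.9 CPM in controls and 29.6, 26.3 and 20.5 CPM in SDS.

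For 4 of the 11 chaperone and co-chaperone genes every SDS library lay above every control (6.49% of all genes). Dnajc3, the BiP co-chaperone also known as p58IPK, measured 73.6, 78.6, 79.0, 73.0 and 72.3 CPM in controls and 87.5, 87.8 and 105 CPM in SDS (log2 0.31 ± 0.10, edgeR adjusted p = 0.139). Hyou1, the nucleotide exchange factor of BiP, measured 55.1, 61.3, 59.2, 47.7 and 51.4 CPM in controls and 72.9, 67.7 and 64.7 CPM in SDS (0.32 ± 0.11, adjusted p = 0.159). Canx, the membrane lectin that holds new glycoproteins, measured 205, 217, 217, 199 and 194 CPM in controls and 240, 245 and 265 CPM in SDS (0.28 ± 0.10, adjusted p = 0.186). In Dnajc3, Hyou1 and Canx the lowest SDS library exceeded the highest control, by a small step compared with that of Xbp1.

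Creld2, an ER protein with disulfide isomerase activity, measured 24.2, 23.9, 21.3, 18.3 and 18.5 CPM in controls and 27.6, 26.1 and 27.1 CPM in SDS, again without overlap (0.34 ± 0.12, adjusted p = 0.179). Calr, the soluble lectin partner of Canx, overlapped in 1 library, with SDS library 3 at 498 CPM and control library 2 at 503 CPM (0.28 ± 0.14). Dnajb11 (0.26 ± 0.11), the secreted ER protein Manf (0.33 ± 0.15) and Sdf2l1 (0.33 ± 0.19), which works with BiP and its J proteins, overlapped too. Control library 2 had the highest chaperone mean of the controls, 0.17 above the control mean on the log2 scale, against 0.29, 0.28 and 0.23 in SDS libraries 1, 2 and 3.

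**Figure D3:**
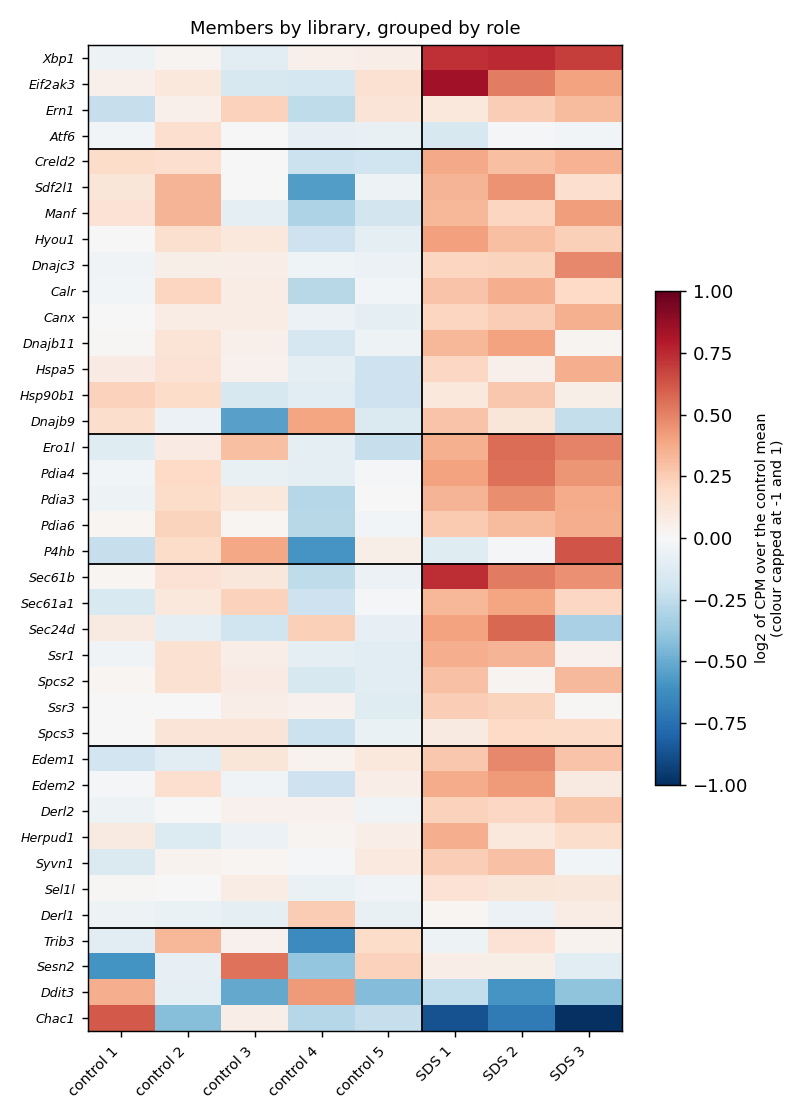
Each row is 1 of the 38 genes, grouped by role and separated by black lines, and each column is a library; colour is the log2 ratio of its CPM to the control mean. The 3 SDS columns are red for most chaperone, disulfide and translocon genes and blue for Chac1 and Ddit3, while control columns 2 and 4 carry opposite tints in many rows.

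In disulfide bond formation every SDS library lay above every control for 4 of 5 genes (6.49% of all genes tested). By edgeR 0 of 5 were called (0.623% of all genes higher and 0.425% lower). On the higher side 4 had an unadjusted p under 0.05 (9.98% of all genes), and DESeq2 called 3 (5.21%). Pdia4 (ERp72) measured 62.8, 73.5, 60.7, 60.1 and 63.0 CPM in controls and 84.7, 93.6 and 86.9 CPM in SDS, a log2 difference of 0.47 ± 0.10 (SE; edgeR adjusted p = 0.0596). Ero1l, the oxidase that recharges protein disulfide isomerases, measured 28.7, 33.0, 38.3, 29.2 and 26.5 CPM in controls and 39.9, 45.8 and 44.0 CPM in SDS (0.47 ± 0.13, adjusted p = 0.103). Pdia3, the isomerase that works with calnexin and calreticulin, measured 313, 368, 348, 267 and 325 CPM in controls and 409, 446 and 420 CPM in SDS (0.39 ± 0.13, adjusted p = 0.158). These 3 genes shared the order of control libraries 2 and 4, with 4 below 2 in each.

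Pdia6 lay at 144 to 204 CPM in controls and at 210, 218 and 225 CPM in SDS (0.32 ± 0.12, adjusted p = 0.221). P4hb, the founding protein disulfide isomerase and a subunit of collagen prolyl hydroxylase, was the disulfide gene whose groups overlapped: it measured 895, 1188, 1373, 697 and 1090 CPM in controls and 962, 1036 and 1619 CPM in SDS. The SDS libraries 1 and 2 lay inside the control range, and its log2 fold change of 0.20 ± 0.26 turned to -0.06 without SDS library 3 and to -0.24 with either marker covariate. P4hb was highest in the 2 libraries with the highest squamous marker sums, SDS library 3 (150194 CPM) and control library 3 (135485 CPM), and lowest in control library 4, which had the lowest sum (40987 CPM).

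At the translocon, the channel in the ER membrane, Sec61b had the largest difference. Its counts were 34.8, 37.9, 37.1, 28.9 and 33.1 CPM in controls and 57.3, 49.2 and 47.1 CPM in SDS, without overlap and with SDS library 1 highest. The log2 difference of Sec61b was 0.58 ± 0.11 (SE; edgeR adjusted p = 0.0538), and it passed with upper quartile scaling (0.0493, where 0.704% of all genes were called higher) and without SDS library 3 (0.0231). Sec61a1, the pore subunit, measured 73.2, 87.4, 95.4, 70.6 and 80.3 CPM in controls and 102, 107 and 93.9 CPM in SDS. SDS library 3 lay below control library 3 there (0.31 ± 0.12, adjusted p = 0.218).

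The other 5 genes of protein entry and exit overlapped between the groups. Every SDS library thus lay above every control for 1 of 7 genes, Sec61b (6.49% of all genes). All 7 had a log2 fold change above 0 (49.3% of all genes). On the higher side 3 had an unadjusted p under 0.05 (9.98% of all genes). By edgeR 0 of 7 were called (0.623% of all genes higher and 0.425% lower). The translocon-associated Ssr1 and Ssr3 gave log2 fold changes of 0.26 ± 0.11 and 0.16 ± 0.10 (SE), and the signal peptidase subunits Spcs2 and Spcs3 gave 0.22 ± 0.11 and 0.16 ± 0.10. Sec24d, a cargo adaptor of the COPII coat of vesicles leaving the ER, measured 41.0 and 46.1 CPM in SDS libraries 1 and 2, above all controls (27.0 to 36.5 CPM), and 24.7 CPM in SDS library 3, below all of them. Its log2 fold change was 0.27 ± 0.19 with all libraries and 0.56 (edgeR adjusted p = 0.0166) without SDS library 3 and control library 4. The 28 bases of its promoter that hold the XBP1 core are shown because they are its only match among the members, at chr3:123267460-123267487 on the plus strand, with the core in capitals.
Sec24d: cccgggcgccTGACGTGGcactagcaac

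ER-associated degradation pulls misfolded proteins back into the cytosol for the proteasome. Its 7 genes had log2 fold changes of 0.02 to 0.35, with 0 of 7 called by edgeR (0.623% of all genes higher and 0.425% lower). For 4 of 7 every SDS library lay above every control (6.49% of all genes). On the higher side 3 had an unadjusted p under 0.05 (9.98% of all genes), and DESeq2 called 2 (5.21%). Edem1, a mannosidase-like protein that marks glycoproteins for removal and is a known XBP1 target, measured 40.7, 43.3, 50.5, 47.7 and 50.1 CPM in controls and 56.1, 64.9 and 56.5 CPM in SDS (0.35 ± 0.10, edgeR adjusted p = 0.130). Its relative Edem2 measured 28.7, 32.6, 28.3, 25.1 and 30.4 CPM in controls and 37.5, 39.0 and 30.9 CPM in SDS, where SDS library 3 lay within the control range (0.30 ± 0.12, adjusted p = 0.208).

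Derl1 and Derl2 are derlins, membrane proteins of the exit channel. Derl2 was the steadiest member in controls, with a coefficient of variation of 2.85%, and measured 37.8, 39.1, 40.2, 40.2 and 38.1 CPM there and 45.8, 45.1 and 47.4 CPM in SDS. Its small log2 fold change of 0.24 ± 0.07 separated the groups (edgeR adjusted p = 0.133), and its exons overlap those of Mis12 on the opposite strand over 231 bp. Derl1 measured 98.0, 96.6, 95.4, 121 and 96.2 CPM in controls and 103, 97.6 and 107 CPM in SDS (0.02 ± 0.11). Sel1l, the scaffold of the ligase HRD1, did not overlap either (87.1 to 96.1 CPM and 98.4 to 101 CPM), although its log2 fold change was 0.13 ± 0.08. The ligase itself, Syvn1 (0.18 ± 0.10), overlapped, and Herpud1 (0.22 ± 0.10), a ubiquitin-like protein of the same complex, did not, with SDS library 2 at 109 CPM just above the highest control at 107 CPM.

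The 4 outputs of the PERK branch include the members with the lowest log2 fold changes, Chac1 and Ddit3. Chac1, which degrades glutathione and is a target of ATF4, measured 38.1, 18.6, 26.1, 20.5 and 21.3 CPM in controls and 13.6, 15.3 and 9.47 CPM in SDS. All SDS libraries lay below all controls, and SDS library 3 was the lowest. The log2 fold change was -0.96 ± 0.27 (SE; edgeR adjusted p = 0.112), and DESeq2 called it at an adjusted p of 0.0136. Ddit3, which encodes the pro-apoptotic factor CHOP, measured 28.3, 20.6, 15.4, 29.5 and 16.3 CPM in controls and 18.5, 14.7 and 16.6 CPM in SDS, a log2 fold change of -0.41 ± 0.24 (edgeR adjusted p = 0.418). Controls 1 and 4 were the high ones, and the SDS values lay at the low end of the control range or just under it. Ddit3 exons overlap 68 bp of Mars, a gene on the opposite strand with 1391 to 1881 counts per library against 399 to 874 of Ddit3, and the strand setting of the counting is not known.

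Trib3, the pseudokinase that CHOP induces, measured 8.16, 11.1, 9.05, 5.64 and 9.99 CPM in controls and 8.49, 9.73 and 9.01 CPM in SDS (log2 0.05 ± 0.21). Sesn2, a stress-induced regulator of mTORC1, measured 11.5, 16.6, 25.5, 13.4 and 20.5 CPM in controls and 18.4, 18.2 and 16.3 CPM in SDS (0.01 ± 0.25). Both SDS groups sat inside the control range. Chac1, Ddit3 and Sesn2 had the largest coefficients of variation of all 38 genes in controls (31.6%, 30.0% and 32.1%), so smaller differences could be seen for Xbp1 (5.08%) than for these. The stretch with the ATF4 composite element is shown for the 2 members that hold it, Chac1 (chr2:119351039-119351066) and Herpud1 (chr8:94386307-94386334), both on the plus strand and with the element, here on the opposite strand, in capitals.
Chac1: ttccctgccgTTGCATCActcctgccag
Herpud1: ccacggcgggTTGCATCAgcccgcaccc

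**Figure D4:**
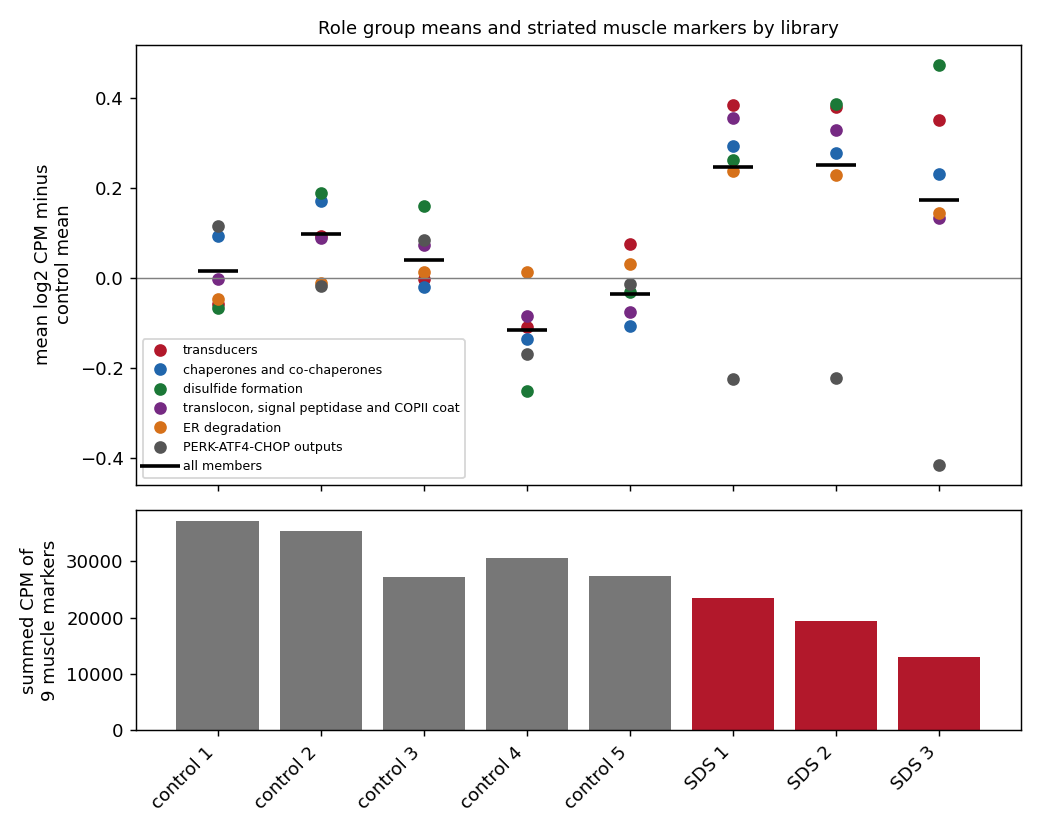
Above, the mean log2 CPM of each role group minus its control mean, by library, with a black dash for all members; below, the summed CPM of 9 striated muscle markers. The dash lies at 0.25, 0.25 and 0.17 in the SDS libraries, the PERK outputs lie below 0 there, and the muscle bars of the SDS libraries are lower than those of all controls.

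Averaged over all 38 genes, the SDS libraries lay 0.25, 0.25 and 0.17 above the control mean on the log2 scale, and the controls spread from -0.12 in library 4 to 0.10 in library 2 with an SD of 0.08. The 4 transducers averaged 0.38, 0.38 and 0.35, the 5 disulfide genes 0.26, 0.39 and 0.47, the 7 translocon and export genes 0.36, 0.33 and 0.13, and the 7 degradation genes 0.24, 0.23 and 0.14. The 4 PERK outputs averaged -0.22, -0.22 and -0.42. SDS library 3 was the lowest of the SDS group in every role except the disulfide genes, which include P4hb and where it was the highest. Beside these means stand the striated muscle marker sums above, which are lower in all SDS libraries. With the mean log2 CPM of these markers as a covariate, which is not their sum, the members' median was 0.31, with 32 of 38 above 0. With that of the epithelial markers it was 0.20 and 33 of 38.

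Plasma cells have a large ER and need XBP1 for their development. A list of 10 plasma and B cell markers summed to 8.64 to 23.7 CPM in controls and 22.6, 52.0 and 31.6 CPM in SDS libraries 1, 2 and 3, beside mean levels of 157 and 260 CPM of Xbp1 in the same groups. Jchain measured 0.229 to 1.97 CPM in controls and 1.49, 3.48 and 1.25 CPM in SDS. Ighm, the largest part of the sum, had means of 10.3 CPM in controls and 20.4 CPM in SDS. Tnfrsf17, which defines mature plasma cells, had 1 to 5 counts in every library. All 8 markers tested had a log2 fold change above 0 (49.3% of all genes). By edgeR 0 of 8 were called (0.623% of all genes higher and 0.425% lower). An unadjusted p under 0.05 was reached by 2, both higher (9.98% of all genes). These were Cd79a and Cd79b, both with 63 counts or fewer in every library. Cd79a measured 0.0739 to 0.307 CPM in controls and 0.472, 0.492 and 2.63 CPM in SDS (5.04-fold). Every SDS library lay above every control, and SDS library 3 was far the highest. Cd79b measured 0.205 to 0.381 CPM in controls and 0.354, 1.23 and 2.00 CPM in SDS (4.24-fold). There SDS library 1 lay within the control range. The 12 markers of glands and neighbouring organs summed to 13.2 to 69.3 CPM in controls and 8.57 to 31.7 CPM in SDS. Most of this sum was Amy1, with means of 23.3 CPM in controls and 14.5 CPM in SDS, and Scgb1a1, with 6.12 and 3.21 CPM. Dcpp1 and Smr3a were at 0 in every library. Neutrophil markers summed to 3.28 to 16.2 CPM in controls and 41.5, 63.0 and 14.7 CPM in SDS, a sum made up mostly of Csf3r and Cxcr2. Csf3r measured 0.337 to 0.811 CPM in controls and 22.8, 45.4 and 0.542 CPM in SDS. The marker Ly6g had 0 to 3 counts in every library. The part of these cell types in the members' values was not tested.

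In the untreated esophagus the members spanned a wide range of levels, compared here in TPM, transcripts per 1000000, a level per exon length. P4hb was highest at 889 ± 158 TPM (SD, n = 5), followed by Calr at 369 ± 22.7, Pdia3 at 252 ± 13.6, Hspa5 at 188 ± 16.3 and Hsp90b1 at 165 ± 25.9 TPM. The ranges of the first 3 did not overlap each other or that of Hspa5, and those of Hspa5 and Hsp90b1 did overlap. Xbp1 came next at 119 ± 14.1 TPM, and its range overlapped those of Hsp90b1, Pdia6 (114 ± 8.63), Canx (108 ± 5.45) and Herpud1 (107 ± 14.3). The sensors were near the other end: Atf6 had 14.6 ± 0.885 TPM and Ern1 13.8 ± 1.34 TPM, which overlapped, and Eif2ak3 was the lowest member at 5.60 ± 0.675 TPM, below the range of every other. After SDS the mean of Xbp1 was 195 TPM, above the control mean of Hspa5 and under its SDS mean of 214 TPM.

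**Figure D5:**
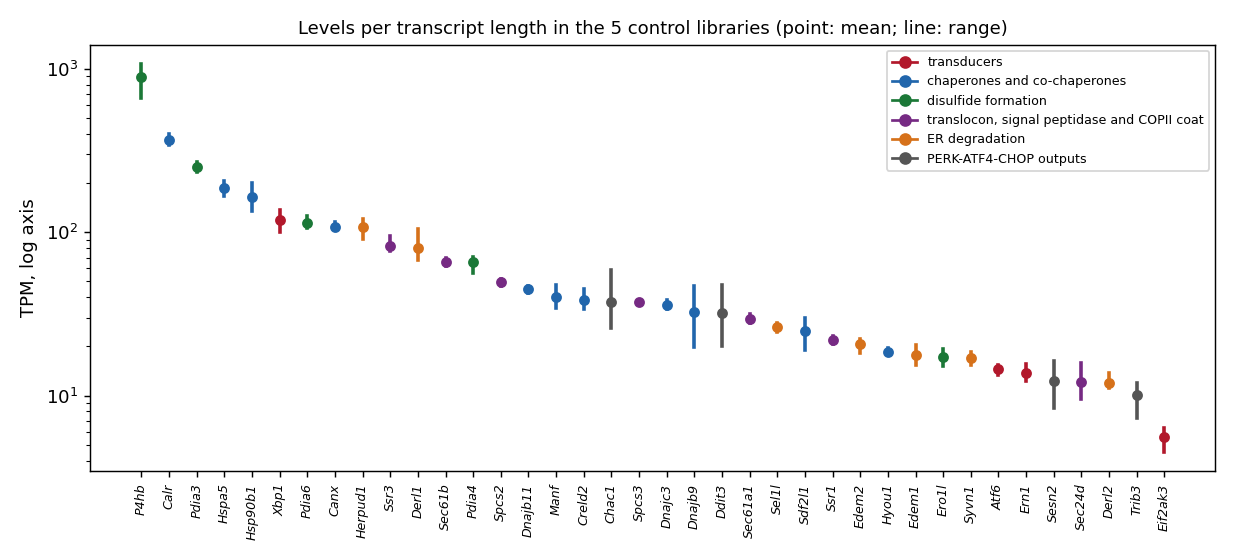
Mean (point) and range (line) of TPM on a log axis for the 38 genes in the 5 control libraries, ordered by mean and coloured by role. Chaperones and isomerases fill the upper end with P4hb at 889 TPM, Atf6, Ern1, Trib3 and Eif2ak3 lie at the lower end, and the lines of Chac1, Ddit3, Dnajb9 and Sesn2 are long.

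Other genes of the same pathways, 164 matched in 7 lists, had 160 tested members. Of these edgeR called 3 higher and 0 lower, beside 0.623% and 0.425% of all genes. An unadjusted p under 0.05 was reached by 41 and 9 (9.98% and 8.53% of all genes). DESeq2 called 27 and 4 (5.21% and 4.55%), and limma-voom 3 and 0 (0.413% and 0.373%). The 9 and 4 on the lower side are smaller shares than those over all genes. The median log2 fold change of the 160 was 0.13, and 74.4% were above 0, against 49.3% of all genes. The 3 called genes all belong to the list of the PERK and ATF4 branch, which also holds Atf4 and other eIF2alpha kinases. Slc7a11, the cystine importer, measured 23.9, 26.0, 30.0, 31.0 and 32.2 CPM in controls and 159, 154 and 140 CPM in SDS (log2 2.40 ± 0.12, adjusted p = 0.00021). Slc3a2, its heavy chain partner, measured 54.2, 54.1, 52.5, 61.8 and 58.8 CPM in controls and 114, 113 and 86.0 CPM in SDS (0.89 ± 0.12, adjusted p = 0.0240). Phgdh, the first enzyme of serine synthesis, measured 70.9, 84.7, 78.3, 96.2 and 77.4 CPM in controls and 135, 129 and 158 CPM in SDS (0.79 ± 0.12, adjusted p = 0.0352). Slc3a2 and Phgdh each lost the call in 6 of the 8 fits that leave out a library, and Slc7a11 lost it in 0 of 8.

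In the same libraries these 3 genes were higher than in every control, while Chac1 was lower than in every control and Trib3 and Sesn2 lay within the control range; the difference between these genes was not tested. Of the 28 genes in the PERK and ATF4 list, 20 had a log2 fold change above 0, and the median was 0.13. Every SDS library lay above every control for 6 of the 28 and below every control for 2 (6.49% and 6.89% of all genes). An unadjusted p under 0.05 was reached by 7 and 3 on the higher and lower side (9.98% and 8.53% of all genes). N-glycosylation genes gave the highest median of the 7 lists, 0.23, with 19 of 21 above 0 and every SDS library above every control for 11 of 21 (6.49% of all genes). By edgeR 0 of 21 were called (0.623% of all genes higher and 0.425% lower). On the higher and lower side 10 and 1 had an unadjusted p under 0.05 (9.98% and 8.53% of all genes). Every SDS library also lay above every control for 7 of 19 other translocon genes, 6 of 30 folding, 6 of 25 degradation and 6 of 28 PERK and ATF4 genes. The same held for 1 of 17 transducers and 1 of 20 COPII genes. Over the 7 lists, every SDS library lay below every control for 6 of 160 genes (6.89% of all genes). Other folding and oxidation genes gave 0.16 with 25 of 30 above 0, other translocon and signal recognition genes 0.14 with 13 of 19, other transducers 0.11 with 13 of 17, and other degradation genes 0.07 with 18 of 25. COPII transport genes had a median of 0.01 with 11 of 20 above 0. In the 6 lists other than that of PERK and ATF4, 0 genes were called by edgeR (0.623% of all genes higher and 0.425% lower). An unadjusted p under 0.05 was reached by 34 and 6 on the higher and lower side (9.98% and 8.53% of all genes). Differences between the lists were not tested.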

How the data were processed

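Whole esophagus RNA of 5 control and 3 SDS libraries was compared, grouped by the titles and treatment in the labels. Per the labels' protocols, poly(A) RNA was made into libraries with a NEBNext Ultra II kit. The deposited values are raw counts per Ensembl gene, 1 table per library. The submitters' processing notes name STAR 2.6.1c, Subread, FastQC, bcl2fastq and the mm10 build; the sources used here give no strand setting, annotation release or handling of multi-mapping reads. The extraction protocol in the labels speaks of frozen cell pellets, the treatment protocol of whole esophagus. Exons of Hsp90b1, Manf, Pdia3, Pdia6, Spcs3, Syvn1, Derl2 and Ddit3 overlap a gene on the opposite strand that has at least 10 counts in every library, over 18 to 415 bp, so their counts could include reads of it. Manf also overlaps Rbm15b on its own strand over 14 bp.

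Symbols came from a table that matched 48970 of 49315 identifiers. In R 4.3.3, edgeR 4.0.16 kept 17179 genes (filterByExpr, minimum count 10, minimum total 15), scaled by TMM and fitted a robust quasi-likelihood model of group, two-sided, Benjamini-Hochberg threshold 0.05. SE is the log2 fold change over the square root of F. CPM use TMM-scaled library sizes, log2 CPM a prior count of 2, TPM the files' exon lengths. DESeq2 1.42.0 and limma 3.58.1 were alternatives. No libraries were copies (lowest chi-square per degree of freedom 22.1).

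The members and lists were chosen with earlier results of these data known. Members named with each library's values were 8 transducers and outputs, members past the threshold, and others by unadjusted p up to 20; Hspa5, P4hb, Derl1, and Sec24d were added after their values were seen. Called genes only were named from the other lists. Promoters are RefSeq sequences of GRCm38.p6, the assembly of mm10. Of 165 other pathway genes, Srp54b matched no identifier.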

Additional observations from a re-analysis of the deposited data

Results flagged for a closer look

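The 38 members were each checked for a control library far from the other 4 (gap to the nearest library over the whole range above 0.71, which chance alone exceeds in about 1 group of 20), and 2 were found. Pdia4 measured 73.5 CPM in control library 2 against 60.1 to 63.0 CPM in the other controls, still below the lowest SDS library at 84.7 CPM. Derl1 measured 121 CPM in control library 4 against 95.4 to 98.0 CPM in the others, above all 3 SDS libraries. The SDS group of 3 is too small for this check.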

How the results depend on the processing

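The members' median (0.19 to 0.31) and the number above 0 (32 to 35 of 38) stayed near their values under all 22 alternatives, and Xbp1 kept a log2 fold change of 0.70 to 0.77. Counts of calls did not. Leaving out each library gave 4 to 879 genes higher and 0 to 343 lower, 0 to 4 members higher, 1 to 9 other ER and stress genes higher and 0 to 1 lower, and 0.70 to 0.75 for Xbp1. Upper quartile scaling called 2 members higher. DESeq2 called 859 genes higher and 751 lower, 10 members higher and 1 lower, and 27 and 4 other ER genes. Limma-voom called 71 genes higher, and with sample weights 1132 higher and 817 lower, 10 members, and 31 and 7 other ER genes. With the muscle covariate 2 genes were higher, 0 lower, 0 members and 1 other ER gene, with Xbp1 at 0.73 (edgeR adjusted p = 0.352); with the epithelial covariate 350 and 414 genes, and 6 and 2 other ER genes. Without control library 4 and SDS library 3 (chosen after seeing the data) 1310 and 767 genes, 5 members, and 18 and 4 other ER genes were called. The cause of these differences was not tested.

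Control and SDS libraries share the numbers 1 to 3, but same-numbered libraries deviated with correlations of 0.443, -0.005 and 0.251, SDS library 2 correlated best with control library 1 (0.011) of controls 1 to 3, and nothing in the labels pairs them. With the replicate block 0 genes were called higher, 0 lower, 0 members and 0 other ER genes (Xbp1 0.77, edgeR adjusted p = 0.0746); the same 6 libraries without it gave 2, 0, 0 and 1 (Xbp1 0.77, adjusted p = 0.138).

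Some members changed sign, none with a call. Leaving out single libraries gave -0.063 to 0.34 for P4hb, -0.064 to 0.14 for Trib3, -0.10 to 0.19 for Sesn2, -0.0098 to 0.096 for Derl1 and -0.050 to 0.21 for Dnajb9. Sample weights gave P4hb -0.076 and Trib3 -0.050. The block gave Trib3 -0.046, and the 6 libraries without it Trib3 -0.054 and Sesn2 -0.021. The muscle covariate gave Ern1 -0.032, P4hb -0.24, Derl1 -0.016, Ddit3 0.040 and Sesn2 -0.35. The epithelial covariate gave P4hb -0.24, Ddit3 0.043, Trib3 -0.26 and Sesn2 -0.32. Leaving out control library 4 and SDS library 3 together gave P4hb -0.19, Trib3 -0.071 and Sesn2 -0.022. Every member had at least 167 counts in every library.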
